A study of Mus musculus with 9 samples.

Results

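The comparison described here set the brains of aged mice whose microglia had been eliminated and allowed to return against the brains of aged mice that kept their microglia. Of the 9 RNA-seq libraries analysed here, 6 belong to it. They are the 3 aged-repopulated libraries P01, P02 and P03 and the 3 aged control libraries P10, P11 and P12, chosen by their group labels, and all 689 genes of the deposited table were measured in each. All mice were male C57BL/6J, and the aged mice came from NIA and were 24 months old. Aged-repopulated mice ate chow with PLX5622 for 2 weeks and then control diet for 4 weeks, and aged controls ate control diet for 6 weeks. The 3 young controls, P07, P08 and P09, were 5 months old by the labels, came from JAX, ate control diet for 6 weeks and are given only as a reference. Age and source of the mice cannot be told apart in any comparison with the young controls, including those called differences with age below. The paper states that brains were taken for RNA-seq after behavioral tests and that mice were killed with carbon dioxide. Any part of testing or handling in the differences was not tested. Each library was made from the RNA of 1 frozen hemibrain and so mixes neurons, glia and vessels. In such bulk RNA, fewer cells of a type and less RNA per cell cannot be told apart. Exposure to the inhibitor and the return of microglia cannot be told apart either, because the same 3 mice had both.

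Microglia are the resident immune cells of the brain and need CSF1R, the receptor of colony-stimulating factor 1, to survive. PLX5622 blocks this receptor and removes most microglia, and when the drug is withdrawn new microglia fill the brain within weeks. Old brain is known for raised complement, lysosomal and major histocompatibility complex transcripts, many of them made by microglia. Immediate early genes, by contrast, are transcribed within minutes of neuronal activity, growth factors or stress, and they encode transcription factors and feedback inhibitors of signalling.

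The table holds RPKM, which scales a gene's reads by its transcript length and by how many reads the library mapped. Its 689 genes are those that the authors' own model had called on libraries of the study, so the adjusted p values below describe a list selected on the same libraries. Summed RPKM over the table ran from 22861.5 to 23631.8 after repopulation, from 23628.9 to 24853.5 in aged controls and from 22242.5 to 22330.4 in young controls. The lowest value was 3.46 RPKM, and no 2 libraries held identical values (0 pairs). Read depth is unknown, so the precision of each value rests on the spread between 3 libraries.

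Repopulation set 60 of the 689 genes apart from aged controls, or 8.71% of the table, with a threshold of 0.05 on the adjusted p (limma on log2(RPKM + 1), Benjamini-Hochberg). After repopulation 20 genes were higher (2.90%) and 40 were lower (5.81%). That balance depended on the scaling, with 111 higher and 22 lower after each library was centred on its median, 52 and 21 after quantile normalization and 46 and 23 after a correction for GC content. With adjustment over all genes that the authors had tested, *Btg2* was the 1 gene called. The largest falls were in a compact set of immediate early genes, led by *Btg2*, *Fos*, *Dusp1*, *Nr4a1* and *Junb*, whose log2 differences were between -1.44 and -0.96. The next lowest, *Slco1a4*, was at -0.38, and the largest called rise was 0.24, in *Sash1* and *Map1b*. Of the 20 called rises, 4 were in microtubule genes and 3 in genes of motor proteins. Over the table the median log2 difference was -0.05, with 262 genes above 0 (38.0%) and 427 below 0 (62.0%). This majority below 0 was lost with centring (357 above and 332 below), the GC correction (352 and 334) and a correction for transcript length (351 and 335). The 6 libraries did not overlap between groups for 258 genes (37.4%), among them all 60 that were called, and 271 genes had an unadjusted p under 0.05 (39.3%).

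The number of called genes depended on single libraries. It was 25 without P01, 21 without P02, 2 without P03, 13 without P07, 4 without P08, 16 without P09, 141 without P10, 5 without P11 and 4 without P12. *Btg2* and *Dusp1* were called in all 9 of these fits, *Tob1* in 8 and *Slco1a4* in 7. None of the other called genes was called in more than 5 of the 9 fits, and some were called in 0, as *Stam* was. Each kept its sign in all 9. With the 6 aged libraries alone, limma called 5 genes, *Btg2*, *Slco1a4*, *Tob1*, *Fos* and *Dusp1*, all of them lower after repopulation.

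**Figure D1:**
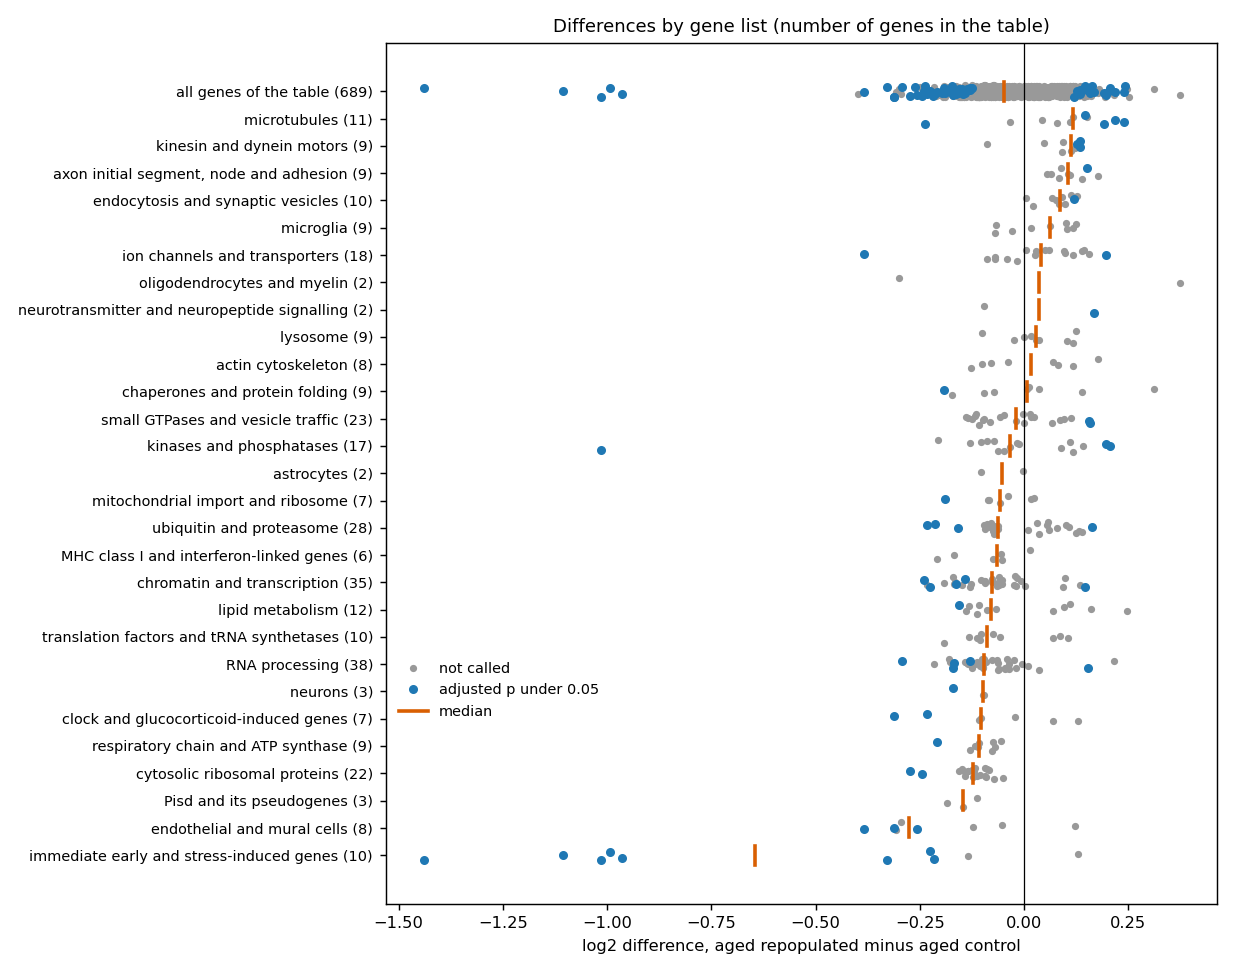
Differences in log2(RPKM + 1) between aged-repopulated and aged control brains (x axis) for every gene of each list and of the whole table (rows, number of genes in parentheses), with called genes in blue and medians as orange bars. Immediate early genes have the lowest median, -0.65, and the microtubule list the highest, 0.12, against -0.05 for the table.

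The plot of differences by gene list shows 28 functional and cell type lists, which together hold 316 of the 689 genes. The immediate early and stress-induced list stands farthest to the left. It has 10 members in the table, of which 8 were lower after repopulation and none was higher, against 5.81% and 2.90% of all genes tested. Its median log2 difference was -0.65.

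*Btg2*, an antiproliferative gene induced by activity and by p53, lies on chromosome 1 of GRCm38 from 134075170 to 134079120. Its levels were 3.90, 3.46 and 3.58 RPKM in P01, P02 and P03 and 9.17, 12.1 and 14.0 RPKM in P10, P11 and P12. The highest aged-repopulated library was thus well under the lowest aged control. *Btg2* fell by 1.44 on the log2 scale with a standard error of 0.16 (adjusted p = 0.0030, limma), from 11.8 ± 2.44 to 3.65 ± 0.23 RPKM (SD, n = 3). In young controls it was at 7.83 ± 1.72 RPKM, so that aged-repopulated brains were also under the young controls, by 0.91 on the log2 scale (adjusted p = 0.013, limma).

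*Fos*, the AP-1 subunit used most widely as a marker of recently active neurons, lies on chromosome 12 from 85473890 to 85477273. It was at 9.46, 11.3 and 11.4 RPKM in the aged-repopulated libraries and at 18.2, 27.4 and 28.2 RPKM in the aged controls. The groups did not overlap, and P10 was the lowest of the aged controls. *Fos* had a log2 difference of -1.11 with a standard error of 0.23 (adjusted p = 0.034, limma). Among the young controls it ranged from 12.1 to 24.4 RPKM, above the aged-repopulated libraries and overlapping the aged controls.

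*Dusp1* encodes a phosphatase that switches off MAP kinases and is itself induced by them, on chromosome 17 from 26505590 to 26562128. Its levels were 11.2, 11.5 and 12.6 RPKM after repopulation and 20.3, 27.4 and 27.2 RPKM in aged controls, again with P10 lowest and no overlap. The log2 difference was -1.01 with a standard error of 0.14 (adjusted p = 0.010, limma). It was also under the young controls, at 20.7 ± 3.95 RPKM, by 0.75 on the log2 scale (adjusted p = 0.018, limma).

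*Nr4a1*, an orphan nuclear receptor on chromosome 15 from 101254269 to 101274795, was at 19.2, 20.6 and 24.8 RPKM after repopulation and at 33.1, 47.2 and 53.1 RPKM in aged controls. *Junb*, an AP-1 subunit on chromosome 8 from 84974484 to 84978718, was at 15.2, 19.7 and 19.3 RPKM and at 25.5, 38.8 and 47.1 RPKM. Neither gene overlapped between the groups, and in both the spread among the aged controls was several times that among the aged-repopulated libraries. Log2 differences were -0.99 with a standard error of 0.20 for *Nr4a1* (adjusted p = 0.034, limma) and -0.96 with a standard error of 0.22 for *Junb* (adjusted p = 0.041, limma). Leaving out single libraries gave adjusted p values from 0.012 to 0.081 for *Fos*, from 0.0083 to 0.081 for *Nr4a1* and from 0.0076 to 0.089 for *Junb* in limma, while the log2 differences stayed between -1.30 and -0.77.

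The other called members fell less. *Tob1*, of the same antiproliferative family as *Btg2*, was at 19.5, 18.4 and 18.5 RPKM after repopulation and at 24.8, 23.0 and 23.8 RPKM in aged controls. Its libraries lay close together within each group, and its log2 difference was -0.33 with a standard error of 0.05 (adjusted p = 0.010, limma). *Cited2*, a co-regulator that binds CBP and p300, and *Klf6*, a zinc finger transcription factor, had log2 differences of -0.22 and -0.21 (adjusted p = 0.037 and 0.048, limma). Of the 2 members that were not called, *Arl4a*, a small GTPase, was at -0.13 with no overlap (adjusted p = 0.059, limma). *Sgk1*, a kinase induced by glucocorticoids as well as by activity, was at 0.13 (adjusted p = 0.33, limma). The summed level of the list was 144.9, 150.9 and 154.5 RPKM in P01, P02 and P03, against 198.1, 244.0 and 262.7 RPKM in P10, P11 and P12 and 159.0 to 222.0 RPKM in the young controls.

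The number of list members called was 3 without P01, 4 without P02, 2 without P03, 5 without P07, 3 without P08, 7 without P09 or P10, and 3 without P11 or P12. With age, in the contrast of the same aged controls against young controls, where 62.8% of the table was called and 46.3% was higher, 2 of the 10 were called, *Btg2* at 0.53 and *Tob1* at 0.14 on the log2 scale (adjusted p = 0.018 and 0.024, limma). *Fos*, *Nr4a1* and *Junb* had age differences of 0.43, 0.47 and 0.50 with adjusted p values of 0.12, 0.063 and 0.065 in limma. The comparisons of age and of repopulation use the same 3 aged control libraries, so their values are set side by side only.

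**Figure D2:**
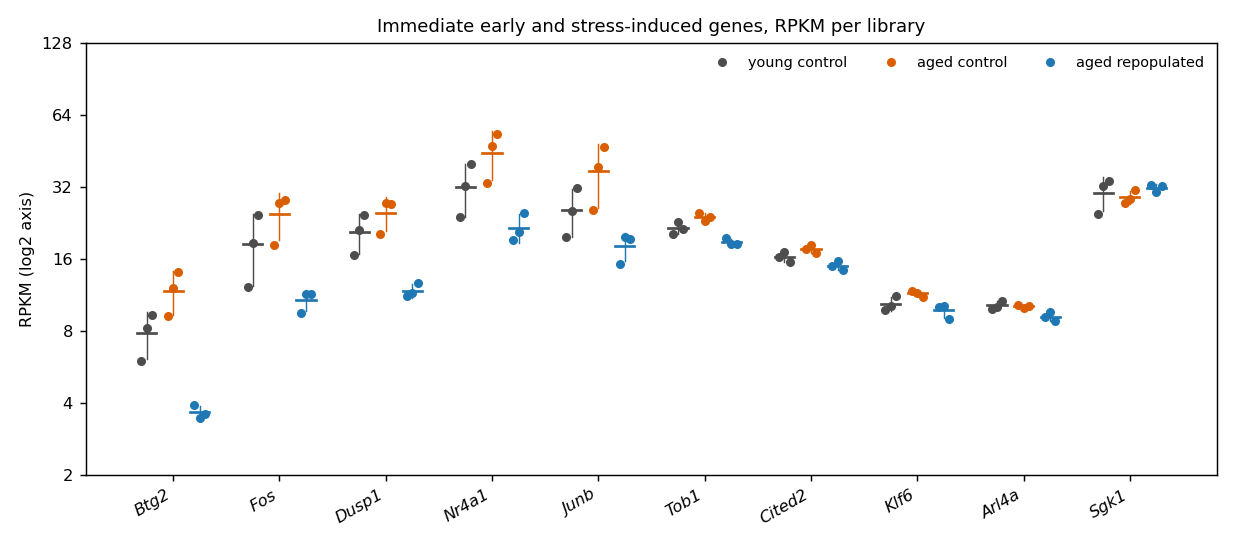
RPKM of the 10 immediate early and stress-induced genes of the table (y axis, log2) in each library of the 3 groups, with horizontal bars at the means and vertical bars of 1 SD. Aged-repopulated libraries (blue) lie under all aged controls (orange) for 9 genes, against 22.2% of the table. For *Btg2* they are at 3.46 to 3.90 against 9.17 to 14.0 RPKM, and *Sgk1* is the exception.

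The plot of immediate early genes by library makes the contrast in spread visible. The young and aged controls each fan out, with the first library of either group, P07 and P10, lowest for *Btg2*, *Fos*, *Dusp1*, *Nr4a1* and *Junb*. The aged-repopulated libraries of *Btg2* and *Dusp1* are tightly bunched, with SDs of 0.23 and 0.76 RPKM.

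Promoters of the 5 genes with the largest falls are shown because they carry the sequence by which cyclic AMP and calcium signals act on such genes, the cyclic AMP response element (CRE), TGACGTCA, or its 5-base core, TGACG. Each is RefSeq sequence on GRCm38.p6, from 250 bases before to 50 after the annotated start, read 5′ to 3′ on the gene's strand. Capitals mark the CRE or the core on either strand, where the core on the opposite strand reads CGTCA and every CRE also holds a core. The regions are chr1:134079106-134079405 (minus strand) for *Btg2*, chr12:85473640-85473939 (plus) for *Fos*, chr17:26508423-26508722 (minus) for *Dusp1*, chr15:101266596-101266895 (plus) for *Nr4a1* and chr8:84978699-84978998 (minus) for *Junb*.
Btg2: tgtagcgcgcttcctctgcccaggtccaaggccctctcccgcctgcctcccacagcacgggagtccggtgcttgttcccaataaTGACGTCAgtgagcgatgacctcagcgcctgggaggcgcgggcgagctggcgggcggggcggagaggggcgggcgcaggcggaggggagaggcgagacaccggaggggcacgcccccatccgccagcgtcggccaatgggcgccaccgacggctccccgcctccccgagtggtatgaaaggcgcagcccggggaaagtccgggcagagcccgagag
Fos: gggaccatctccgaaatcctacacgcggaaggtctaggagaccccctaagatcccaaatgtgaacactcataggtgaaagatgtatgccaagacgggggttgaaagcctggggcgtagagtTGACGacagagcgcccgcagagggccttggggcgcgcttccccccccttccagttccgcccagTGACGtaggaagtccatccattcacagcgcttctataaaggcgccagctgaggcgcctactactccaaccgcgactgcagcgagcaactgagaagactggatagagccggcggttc
Dusp1: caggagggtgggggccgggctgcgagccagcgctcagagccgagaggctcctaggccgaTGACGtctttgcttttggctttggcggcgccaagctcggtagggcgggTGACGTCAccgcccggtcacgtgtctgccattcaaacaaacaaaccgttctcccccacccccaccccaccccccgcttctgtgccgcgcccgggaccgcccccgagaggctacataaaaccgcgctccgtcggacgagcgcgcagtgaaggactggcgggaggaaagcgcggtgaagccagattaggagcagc
Nr4a1: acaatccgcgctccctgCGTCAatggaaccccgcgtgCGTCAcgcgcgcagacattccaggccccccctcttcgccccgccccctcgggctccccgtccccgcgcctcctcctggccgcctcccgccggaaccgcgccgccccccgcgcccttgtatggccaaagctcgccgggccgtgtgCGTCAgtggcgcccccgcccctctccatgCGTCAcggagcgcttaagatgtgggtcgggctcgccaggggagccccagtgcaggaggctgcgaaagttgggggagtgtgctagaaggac
Junb: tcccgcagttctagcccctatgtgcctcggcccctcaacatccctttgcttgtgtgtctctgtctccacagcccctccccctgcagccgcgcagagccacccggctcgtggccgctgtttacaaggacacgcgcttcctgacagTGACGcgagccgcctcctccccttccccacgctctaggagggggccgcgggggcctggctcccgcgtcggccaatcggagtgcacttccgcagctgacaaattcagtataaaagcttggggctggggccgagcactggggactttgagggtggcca

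*Btg2* and *Dusp1* hold a whole CRE, starting 166 and 143 bases before the start site. Among the other called genes, a window of *Gas5*, called lower, and that of *Peg3*, called higher, also hold a whole CRE. *Dusp1* holds a further core 191 bases before its start. The windows of *Fos*, *Nr4a1* and *Junb* hold cores only, at 129 and 66 bases before the start in *Fos*, at 233, 213, 69 and 40 bases in *Nr4a1*, and at 106 bases in *Junb*. A promoter window was matched for all 10 members of the list, and 8 of them held the core, 2 with a whole CRE. The core was not particular to genes that fell. In the kinesin and dynein list, whose median difference was above 0, 7 of 8 matched genes held it. Among 32851 RefSeq promoter windows of the same length 20.8% held the core and 1.79% the CRE, and among 557 genes of the table with a window 40.8% and 3.59% did. A gene was counted if any of its windows held the motif, so shares of genes and shares of windows are not like for like. A match of letters is a description of the sequence and not a measured binding site.

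Vessel genes were the cell type list with the lowest median. Of 8 endothelial and mural genes in the table, 3 were lower after repopulation and none was higher, against 5.81% and 2.90% of the table. The median log2 difference was -0.28, and -0.16 with 1 called after the correction for transcript length. *Slco1a4*, an organic anion transporter of the blood-brain barrier on chromosome 6 from 141805440 to 141856199, was at 12.9, 11.6 and 11.0 RPKM after repopulation and at 16.2, 14.9 and 16.1 RPKM in aged controls. All 3 aged-repopulated libraries were under every aged control, and under every young control at 15.6 to 16.9 RPKM. Its log2 difference was -0.38 with a standard error of 0.06 (adjusted p = 0.012, limma), and against young controls it was -0.41 (adjusted p = 0.0045, limma). Without P03 or P12 the adjusted p was 0.058 and 0.053.

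*Igfbp7*, a secreted protein of vessel walls, was at 10.7, 9.96 and 8.81 RPKM after repopulation and at 11.2, 13.2 and 12.9 RPKM in aged controls, with a log2 difference of -0.31 (adjusted p = 0.041, limma). *Ackr1*, a chemokine-binding receptor of venular endothelium, was at 26.7, 23.2 and 23.8 RPKM and at 30.4, 28.1 and 30.2 RPKM, a log2 difference of -0.26 (adjusted p = 0.048, limma). Both sets of libraries were separate but close, and P01 was the highest aged-repopulated library in each. Exons of *Ackr1* share 284 bases with *Cadm3* on the same strand and those of *Igfbp7* share 85 with *Polr2b* on the other, and how such reads were counted is not given in the sources used here.

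The 5 vessel genes that were not called included *Ly6c1* at -0.31 and *Ly6a* at -0.29, both carried on brain endothelium (adjusted p = 0.061 and 0.087, limma). *Sparc* and *Ly6e* were at -0.12 and -0.05, and *Itm2a* at 0.12. Summed over the list, P01 stood at 347.9 RPKM, above P02 and P03 at 288.3 and 298.2 RPKM and within the aged controls at 324.5 to 376.6 RPKM. Without P01, 5 members were called lower. Without P03 or P12 none was called (0), without P02, P07, P08, P09 or P11 only 1 was, and without P10 there were 2. With the correction for transcript length 1 was called, *Slco1a4*.

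Among 7 clock and glucocorticoid-induced genes, 2 were lower after repopulation, *Ciart* and *Usp2*, and none was higher, against 5.81% and 2.90% of the table. *Ciart*, a repressor within the circadian clock on chromosome 3 from 95878503 to 95882251, was at 8.45, 9.26 and 9.41 RPKM after repopulation and at 12.6, 11.2 and 10.7 RPKM in aged controls. It was at 11.99 ± 1.07 RPKM in young controls, so the aged-repopulated brains were the low group, with a log2 difference of -0.31 to aged controls (adjusted p = 0.041, limma) and of -0.37 to young controls (adjusted p = 0.018, limma). *Usp2*, a deubiquitinating enzyme with a daily rhythm in many tissues, was at 13.4, 13.1 and 12.97 RPKM after repopulation and at 17.2, 14.9 and 14.96 RPKM in aged controls. The log2 difference of *Usp2* was -0.23 (adjusted p = 0.037, limma).

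The clock output factor *Tef* was at -0.11 with no overlap between groups (adjusted p = 0.076, limma), and *Gjb6*, a gap junction gene of astrocytes, was at -0.10. Of this list's members known for induction by glucocorticoids, *Sgk1* was at 0.13, *Klf15* at 0.07 and *Tsc22d3* at -0.02, with adjusted p values from 0.33 to 0.75 in limma. The list does not hold every gene that glucocorticoids can induce, and *Dusp1*, among the largest falls above, was not in it. Leaving out any aged-repopulated library, P07, P08, P11 or P12 left 0 members called. The same was so with the correction for transcript length.

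The *Ciart* promoter is shown because it carries the E-box, CACGTG, through which the clock's activators act. It spans chr3:95882179-95882478 on the minus strand of GRCm38.p6 (RefSeq), and capitals mark the E-boxes, which read the same on both strands.
Ciart: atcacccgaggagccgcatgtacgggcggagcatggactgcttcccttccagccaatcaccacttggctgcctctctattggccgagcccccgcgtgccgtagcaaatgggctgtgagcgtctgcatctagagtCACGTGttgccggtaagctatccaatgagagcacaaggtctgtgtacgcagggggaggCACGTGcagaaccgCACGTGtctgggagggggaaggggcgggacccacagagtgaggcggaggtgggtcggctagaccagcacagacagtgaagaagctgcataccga

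This window held 3 E-boxes, 116, 58 and 44 bases before the start. An E-box was present in 4 of the 7 list members, in 12.2% of the 557 table genes with a window and in 7.15% of all 32851 windows. Here too a gene was counted if any of its windows held the motif, unlike the share of windows.

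The highest median of any list in the deposited values was that of microtubule genes. Microtubules build the tracks of axonal and dendritic transport, and the list also holds genes of the centriole. After the correction for transcript length the list's median was 0.06, below those of the oligodendrocyte, microglial and lysosome lists at 0.13, 0.11 and 0.11. Of 11 microtubule genes, 4 were higher and 1 was lower after repopulation, against 2.90% and 5.81% of the table, with a median log2 difference of 0.12. *Map1b*, a microtubule-associated protein of growing axons on chromosome 13 from 99421446 to 99516540, was at 95.9, 102 and 108 RPKM after repopulation and at 85.9, 85.5 and 86.4 RPKM in aged controls. Every aged-repopulated library was higher, and the aged controls differed from each other by under 1 RPKM. The log2 difference was 0.24 with a standard error of 0.04 (adjusted p = 0.023, limma), and young controls were at 102 ± 2.74 RPKM.

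*Map1a*, its relative in mature dendrites, was at 107, 107 and 114 RPKM after repopulation and at 99.4, 93.9 and 93.4 RPKM in aged controls, a log2 difference of 0.19 (adjusted p = 0.031, limma). *Ccp110*, which caps centrioles, and *Ttll7*, which adds glutamate chains to tubulin, were at 0.22 and 0.15 (both adjusted p = 0.048, limma). *Cetn3*, a centrin of the centriole, went the other way. It was at 35.9, 31.9 and 36.8 RPKM after repopulation and at 39.7, 42.1 and 41.8 RPKM in aged controls, a log2 difference of -0.24 (adjusted p = 0.037, limma). *Agtpbp1*, *Ttbk2* and *Clasp2* were between 0.11 and 0.15 without being called, and *Map7* was at -0.03 (adjusted p from 0.059 to 0.42, limma).

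Motor proteins showed the same sign. Of 9 kinesin and dynein genes, 3 were higher, against 2.90% of the table, and none was lower, with a median of 0.11. *Dync1h1*, the heavy chain of cytoplasmic dynein on chromosome 12 from 110601452 to 110666945, had SDs of 0.07 RPKM after repopulation and 0.39 RPKM in aged controls. Its levels were 50.4, 50.5 and 50.4 RPKM after repopulation and 45.5, 46.2 and 45.9 RPKM in aged controls, a log2 difference of 0.13 (adjusted p = 0.034, limma). *Kif1a*, the kinesin that carries synaptic vesicle precursors along axons, was at 142, 146 and 142 RPKM and at 130, 133 and 128 RPKM, a difference of 0.14 (adjusted p = 0.041, limma). The dynein adaptor *Bicd2* was at 0.13 (adjusted p = 0.049, limma). *Kif1b* at 0.12, *Trak2* at 0.11, *Kif21a* and *Spag9* at 0.09 and *Pafah1b1* at 0.05 were not called, and *Kifc2* was at -0.09. Over both lists, none of the 20 genes was called higher without P03, P08, P11 or P12. The microtubule and motor lists had 3 and 1 such calls without P01, 3 and 0 without P02, 1 and 0 without P07, 2 and 0 without P09, and 5 and 4 without P10.

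Endocytic and synaptic vesicle genes were above 0 in 10 of 10, against 38.0% of the table, and 1 was called higher, against 2.90%. *Stam*, which sorts ubiquitinated receptors on endosomes, was at 18.1, 18.0 and 17.5 RPKM after repopulation and at 15.9, 16.7 and 16.4 RPKM in aged controls, a log2 difference of 0.12 (adjusted p = 0.0499, limma). *Prepl*, the clathrin heavy chain gene *Cltc* and the dynamin gene *Dnm3* were at 0.13, 0.10 and 0.09, with adjusted p values of 0.053, 0.071 and 0.083 in limma. The list's median was 0.09, and 0.04 with 0 called after the correction for transcript length. Without any 1 of the 9 libraries *Stam* was not called (0 of 9 fits).

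Genes of the axon initial segment, the node of Ranvier and cell adhesion were above 0 in 9 of 9, against 38.0% of the table, with 1 called higher (2.90% of the table) and a median of 0.11. After the correction for transcript length 5 lay above 0 and 4 below, with a median of 0.04 and 0 called. *Ank3*, ankyrin G, the scaffold of the initial segment, was at 26.6, 27.5 and 27.9 RPKM after repopulation and at 25.4, 23.3 and 24.9 RPKM in aged controls. Its log2 difference was 0.15 (adjusted p = 0.045, limma). *Nfasc*, the adhesion protein that *Ank3* anchors, was at 0.18, the sodium channel *Scn1a* at 0.14 and the receptor phosphatase *Ptprd* at 0.11, with adjusted p values of 0.059, 0.092 and 0.076 in limma. With age all 9 were called lower, against 16.5% of the table, in the contrast that shares the aged control libraries. Actin genes were mixed. Of 8, none was called (0), and 4 had an unadjusted p under 0.05, against 39.3% of the table. The members ranged from *Tmsb4x* at -0.13 to the myosin *Myh9* at 0.18, with a median of 0.02 that was -0.01 after the correction for transcript length.

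Transcript length moved with these differences. The shortest of 4 length classes, 172 genes with transcripts of 434 to 1898 nucleotides, had a median log2 difference of -0.12 and held 1 gene called higher and 16 called lower. The longest class, 172 genes of 5000 to 15928 nucleotides, had a median of 0.09 and held 19 called higher and 0 called lower. Median transcript length was 7354 nucleotides for the 20 genes higher after repopulation and 1994 for the 40 lower, and Spearman's rho of the difference with length was 0.65 over 686 genes, which come from the same libraries and are no replicates.

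Per library, the median deviation of the longest class minus that of the shortest was 0.03 in P01, 0.08 in P02 and 0.0043 in P03. It was -0.09, -0.24 and -0.14 in the aged controls P10, P11 and P12, and 0.13, 0.09 and 0.11 in the young controls. The aged controls thus stood apart from both other groups, and P11 most of all. When each library was corrected for its own trend on length, limma called 10 genes. *Btg2* (-1.37), *Dusp1* (-0.92), *Slco1a4* (-0.36), *Tob1* (-0.24) and *Rpl14* (-0.15) remained lower and *Shc3* (0.31) remained higher.

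In that fit *Fos*, *Nr4a1* and *Junb* had log2 differences of -1.02, -0.92 and -0.86 with adjusted p values of 0.052, 0.050 and 0.072. Microtubule and motor genes kept medians above 0, at 0.06 and 0.02, and none was called (0 of 20). *Map1b* was at 0.11, *Map1a* at 0.06, *Kif1a* at 0.05 and *Dync1h1* at -0.02. The part of length in the rises was not tested beyond this correction.

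**Figure D3:**
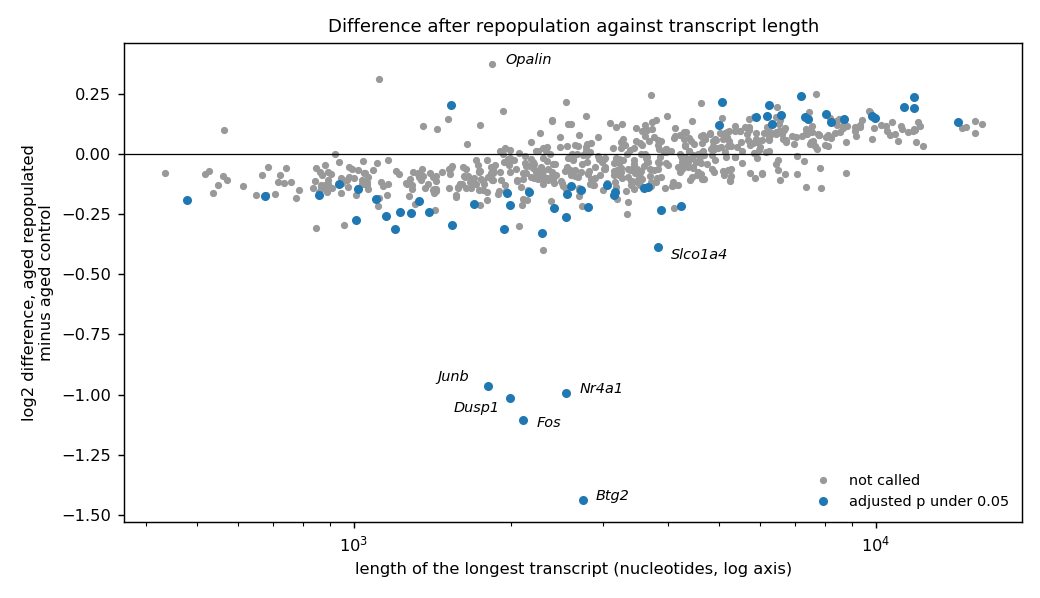
Log2 difference of each gene between aged-repopulated and aged control brains (y axis) against its transcript length (x axis, nucleotides, log), with called genes in blue. The length is that of the longest protein-coding transcript of the GENCODE basic set, where a gene has such a transcript. Most short genes lie under 0 and most long genes over it, while *Btg2*, *Fos*, *Dusp1*, *Nr4a1* and *Junb* lie at -1.44 to -0.96, far under other genes of their length.

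The plot of difference against transcript length shows 2 features, a slope that runs through all genes and the 5 immediate early genes under it. The latter have transcripts of 1809 to 2743 nucleotides, a range in which the other genes of the plot lie between -0.40 and 0.37.

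Genes of the cytosolic ribosome, whose transcripts are short, lay under 0 in 22 of 22, against 62.0% of the table, with a median of -0.12. Only *Rpl14* and *Rps19* were called lower and none higher, so the share of calls was 2 of 22 against 5.81% of the table. *Rpl14* was at 29.5, 26.7 and 29.3 RPKM after repopulation and at 32.5, 36.2 and 35.1 RPKM in aged controls, a log2 difference of -0.27 (adjusted p = 0.023, limma). *Rps19* was at 22.7, 22.3 and 22.8 RPKM and at 24.6, 29.2 and 27.3 RPKM, a difference of -0.25 (adjusted p = 0.041, limma). P11 was the highest library for both genes and for the list as a whole, at 2211 RPKM against 1922 and 2015 in the other aged controls and 1788 to 1960 after repopulation. After the correction for transcript length the list's median was -0.01 with 7 of 22 above 0. Ribosomal protein genes have many near-identical pseudogenes, and how shared reads were counted is not given in the sources used here. Without P10, 9 members were called lower, without P03, P08, P11 or P12 none was (0), and without P01, P02, P07 or P09 1 was, *Rpl14*.

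Of 10 translation factors and tRNA synthetases none was called (0), and 6 had an unadjusted p under 0.05, against 39.3% of the table. *Gatc*, of the mitochondrial glutamine amidotransferase, was lowest at -0.19 (adjusted p = 0.052, limma). The release factor *Gspt1* was at 0.10. Respiratory chain genes were under 0 in 9 of 9, against 62.0% of the table, with a median of -0.11, which became 0.02 after the correction for length. *Ndufs4*, a subunit of complex I, was the 1 called lower, against 5.81% of the table. It was at 24.9, 23.0 and 25.5 RPKM after repopulation and at 27.3, 29.3 and 28.6 RPKM in aged controls, a log2 difference of -0.21 (adjusted p = 0.037, limma). The mitochondrial ribosomal gene *Mrpl33*, at -0.19, was the 1 of 7 mitochondrial import and ribosome genes that was lower (adjusted p = 0.045, limma), against 5.81% of the table. That list's median was -0.06, and 0.01 after the correction.

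RNA processing was the largest list, and 34 of its 38 members lay under 0, against 62.0% of the table. Its median was -0.10, and -0.03 after the correction for transcript length, with which *Prpf4b* was called in place of the 5 named here. Called lower were 4 members of different kinds, against 5.81% of the table. *Snhg12* and *Gas5* are host transcripts of small nucleolar RNAs, at -0.29 and -0.17 (adjusted p = 0.037 and 0.048, limma). *Fastk*, of a family that acts on mitochondrial RNA, was at -0.13, and the neuronal splicing factor *Rbfox3*, the NeuN antigen, at -0.17 (adjusted p = 0.042 and 0.045, limma). Exons of *Fastk* share 694 bases with *Slc4a2* on the other strand, and the strand setting is not given in the sources used here. *Snhg12* was at 14.0, 14.1 and 14.2 RPKM after repopulation and at 15.8, 18.0 and 18.9 RPKM in aged controls, and its exons contain small nucleolar RNAs annotated as genes of their own. *Cpeb3*, which holds mRNAs back from translation at synapses, was the 1 called higher, at 0.15 (adjusted p = 0.042, limma), against 2.90% of the table.

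Chromatin and transcription genes were under 0 in 30 of 35, against 62.0% of the table, with a median of -0.08 and 4 called lower, against 5.81%. After the correction for transcript length the median was -0.02 with 0 called, after centring it was -0.02, and after the GC correction 15 lay above 0 and 20 below. Those called lower were *Hmgn3*, a nucleosome-binding protein, at -0.24, *Cited2* at -0.22, *Taf9*, of the general transcription machinery, at -0.16, and *Bmi1*, of Polycomb complex 1, at -0.14, with adjusted p values of 0.023, 0.037, 0.045 and 0.048 in limma. *Hmgn3* was at 20.7, 21.8 and 22.3 RPKM after repopulation and at 24.3, 25.6 and 27.3 RPKM in aged controls. *Taf9* shares 1119 exonic bases with *Ak6* on the same strand, so its reads cannot be assigned to it alone. The imprinted zinc finger gene *Peg3* was higher, at 74.98, 73.9 and 74.3 RPKM against 68.7, 67.4 and 65.4 RPKM, a log2 difference of 0.15 (adjusted p = 0.041, limma).

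Among 28 ubiquitin and proteasome genes, 3 were lower and 1 was higher, against 5.81% and 2.90% of the table. *Usp2*, the ubiquitin ligase gene *Dtx3* (-0.21) and *Rnf112* (-0.16), a ring finger gene expressed mainly in brain, were lower, and *Usp54* (0.16) was higher, with adjusted p values of 0.037, 0.041, 0.048 and 0.049 in limma. The list's median was -0.06, close to the table's. Of 9 chaperone and folding genes 1 was called lower, against 5.81% of the table. This was *Emc6* of the membrane protein complex of the endoplasmic reticulum. *Emc6* was at 14.5, 14.5 and 14.4 RPKM after repopulation and at 16.0, 16.8 and 17.3 RPKM in aged controls, a log2 difference of -0.19 (adjusted p = 0.023, limma). *Cryab*, a small heat shock protein rich in oligodendrocytes, was at 0.31 with overlapping libraries (adjusted p = 0.058, limma).

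Of 12 lipid genes 1 was called lower, against 5.81% of the table. This was *Gcdh* at -0.16 (adjusted p = 0.048, limma), an enzyme of lysine and tryptophan breakdown rather than of lipids. *Insig2*, a brake on sterol synthesis, was at -0.14 and the fatty acid elongase gene *Elovl5* at 0.16 (adjusted p = 0.053 and 0.064, limma). *Pisd*, of phosphatidylethanolamine synthesis, and its pseudogenes *Pisd-ps1* and *Pisd-ps2* were at -0.11, -0.18 and -0.15, none called (adjusted p = 0.15, 0.35 and 0.37, limma). These 3 were far higher in aged than in young controls, by 0.62, 1.43 and 1.18 on the log2 scale, and against young controls the aged-repopulated brains were still at 0.50, 1.24 and 1.04 (all adjusted p = 0.0025, limma). They share sequence, so reads may be split between them.

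Signalling and transport lists each had calls in both directions or few calls, against 2.90% of the table called higher and 5.81% lower. Of 18 ion channel and transporter genes, *Wnk1* was higher, a kinase that regulates chloride cotransport, at 27.3, 24.99 and 27.3 RPKM against 23.6, 21.5 and 24.0 RPKM (log2 difference 0.20, adjusted p = 0.045, limma), and *Slco1a4* was lower. Of 17 kinase and phosphatase genes, *Wnk1* and *Phlpp1*, which dephosphorylates Akt (0.21, adjusted p = 0.048, limma), were higher and *Dusp1* was lower. *Ppp1r1a*, an inhibitor of protein phosphatase 1, was at -0.21 with no overlap (adjusted p = 0.052, limma). Among 23 genes of small GTPases and vesicle traffic, the sorting nexin gene *Snx30* and *Sbf1*, a myotubularin-related exchange factor, were each higher by 0.16 (adjusted p = 0.045 and 0.048, limma). The list's median was -0.02, and 0.03 after the correction for length. *Iqsec1*, an exchange factor for Arf6 at synapses, was at 0.17 (adjusted p = 0.045, limma), and *Gad1*, which makes GABA, at -0.10.

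Microglial genes as a group did not separate aged-repopulated from aged control brains. All 9 that were compared overlapped between the groups, 0 had an unadjusted p under 0.05 in limma, against 39.3% of the table, and the smallest adjusted p was 0.386. Log2 differences ran from -0.07 for *C1qb* and *C1qc* to 0.13 for *Laptm5*, with a median of 0.06, and *Csf1r*, which encodes the receptor that PLX5622 blocks, was at 0.06. Exons of *Csf1r* share 873 bases with *Hmgxb3* on the other strand, and how such reads were counted is not given. Several markers of resting microglia, *Cx3cr1*, *P2ry12* and *Tmem119* among them, are not among the 689 genes and were not analysed here.

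*C1qa*, a chain of the complement initiator C1q, was at 48.1, 27.8 and 31.1 RPKM after repopulation and at 36.8, 39.1 and 31.0 RPKM in aged controls. *Tyrobp*, the adaptor of TREM2, was at 25.2, 16.4 and 17.4 RPKM and at 16.5, 20.6 and 17.0 RPKM. *Csf1r* was at 18.9, 16.0 and 15.7 RPKM and at 16.0, 17.0 and 15.3 RPKM. In each the library P01 was the highest of all 6, and P02 and P03 lay within or under the aged controls.

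P01 was the highest aged-repopulated library for all 9 microglial genes. Their summed level was 340.7 RPKM in P01, 239.0 in P02 and 258.2 in P03, against 268.8, 294.1 and 247.9 RPKM in P10, P11 and P12 and 178.8 to 184.5 RPKM in the young controls. Without P01, 8 of the 9 differences were negative. *C1qa*, *C1qb* and *C1qc* were at -0.26, -0.25 and -0.25 (adjusted p = 0.091, 0.13 and 0.073, limma), *Ctss* and *Tyrobp* at -0.06 and -0.08, and none of the 9 was called. After the correction for transcript length all 9 lay above 0, with a median of 0.11 and none called. Over the microglial genes with a mean of at least 20 RPKM the median was -0.0064. The sign of the microglial median thus changed with 1 library and with that filter, and its size with the scaling.

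Against young controls these genes were high in both aged groups. With age 7 of the 9 were called higher, against 46.3% of the table, all but *Csf1r* and *Lgmn*, as for *Ctss*, a lysosomal protease, at 0.81 on the log2 scale (adjusted p = 0.0057, limma). Aged-repopulated brains were also above young controls for *Ctss*, at 0.93 (adjusted p = 0.0045, limma), *C1qa*, at 0.87 (adjusted p = 0.018, limma), and *Tyrobp*, at 0.89 (adjusted p = 0.0089, limma).

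**Figure D4:**
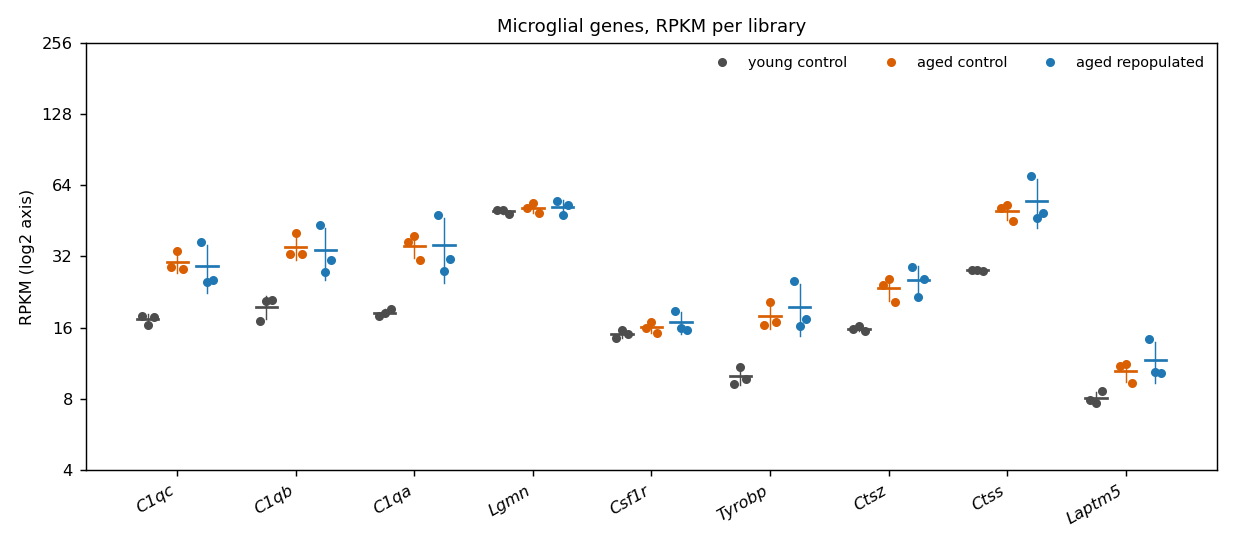
RPKM of 9 microglial genes of the table (y axis, log2) in each library of the 3 groups, with horizontal bars at the means and vertical bars of 1 SD. Both aged groups overlap for every gene, with P01 the highest blue point, and 7 genes lie higher than in young controls, as for *Ctss* at 45.3 to 69.7 against 27.9 to 28.1 RPKM.

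The plot of microglial genes by library shows P01 apart from P02 and P03 and most of the aged libraries of either diet above the young controls. Lysosomal genes, 4 of which are also in the microglial list, gave the same picture. None of 9 was called (0), 1 had an unadjusted p under 0.05, against 39.3% of the table, and the median was 0.03. The 6 genes of MHC class I and interferon were not called either (0, with 0 at an unadjusted p under 0.05), from *H2-D1* at -0.21 to *Lgals3bp* at 0.01. *B2m*, the light chain of MHC class I, was at 144, 102 and 99.7 RPKM after repopulation and at 140, 115 and 106 RPKM in aged controls, with P01 and P10 the highest of their groups and 64.9 to 73.7 RPKM in young controls. The MHC list's median was -0.06, and 0.05 after the correction for length.

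Markers of the remaining brain cells were few. Of 3 neuronal markers *Rbfox3* was lower, at 49.3, 52.4 and 52.9 RPKM after repopulation and 58.4, 56.2 and 59.6 RPKM in aged controls, and *Gad1* and *Snhg11* were both at -0.10. The summed level of the 3 was 604.9 to 622.2 RPKM after repopulation and 631.3 to 692.8 RPKM in aged controls. The astrocyte genes *Glul*, which makes glutamine, and *Gjb6* were at -0.0013 and -0.10, and neither was called. *Opalin*, a myelin protein gene, was at 19.2, 12.1 and 16.1 RPKM after repopulation and at 13.2, 11.3 and 10.9 RPKM in aged controls, a log2 difference of 0.37 (adjusted p = 0.093, limma), with P02 among the aged controls. *Apod*, a lipocalin of myelinating and perivascular cells, was at -0.30 with wide overlap (adjusted p = 0.25, limma). None of the blood cell or choroid plexus markers looked for is among the 689 genes (0 of them). Whether the mix of cells had a part in the differences above was not tested.

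Outside the lists stood 373 genes, of which 3 were called higher and 11 lower, against 2.90% and 5.81% of the table. Higher were *Sash1*, a scaffold of signalling and adhesion, *Shc3*, an adaptor of neurotrophin receptors, and *Ddhd1*, a phospholipase of phosphatidic acid. *Ddhd1* was at 15.6, 15.4 and 15.2 RPKM after repopulation and at 13.9, 13.8 and 13.5 RPKM in aged controls, a log2 difference of 0.16 (adjusted p = 0.023, limma). *Shc3* was at 12.5, 13.3 and 12.99 RPKM and at 11.0, 10.6 and 11.8 RPKM, a log2 difference of 0.20 (adjusted p = 0.037, limma). Its transcript length as used here, 1537 nucleotides, is the lowest of the 20 called higher. *Sash1* was at 14.2, 13.7 and 12.98 RPKM and at 12.1, 11.8 and 10.2 RPKM (adjusted p = 0.049, limma).

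The largest falls outside the lists were in *Pcbp3*, a poly(C)-binding protein, at -0.26, *Ccng2*, cyclin G2, at -0.22, and the unmatched symbol LOC106740 at -0.20 (adjusted p = 0.048, 0.041 and 0.045, limma). *Jtb* was at 17.6, 16.9 and 17.6 RPKM after repopulation and at 19.9, 20.01 and 19.7 RPKM in aged controls, a log2 difference of -0.19 (adjusted p = 0.023, limma). *Churc1* and *Nt5c*, a nucleotidase, were both at -0.17. *Prmt8*, an arginine methyltransferase of neurons, and *Wbp5* were at -0.15, *Ampd2*, an AMP deaminase, at -0.14, *Rpl7l1* at -0.13 and *Commd3* at -0.12, with adjusted p values from 0.041 to 0.048 in limma. *Churc1* shares 248 exonic bases with *Fntb* on the same strand.

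**Figure D5:**
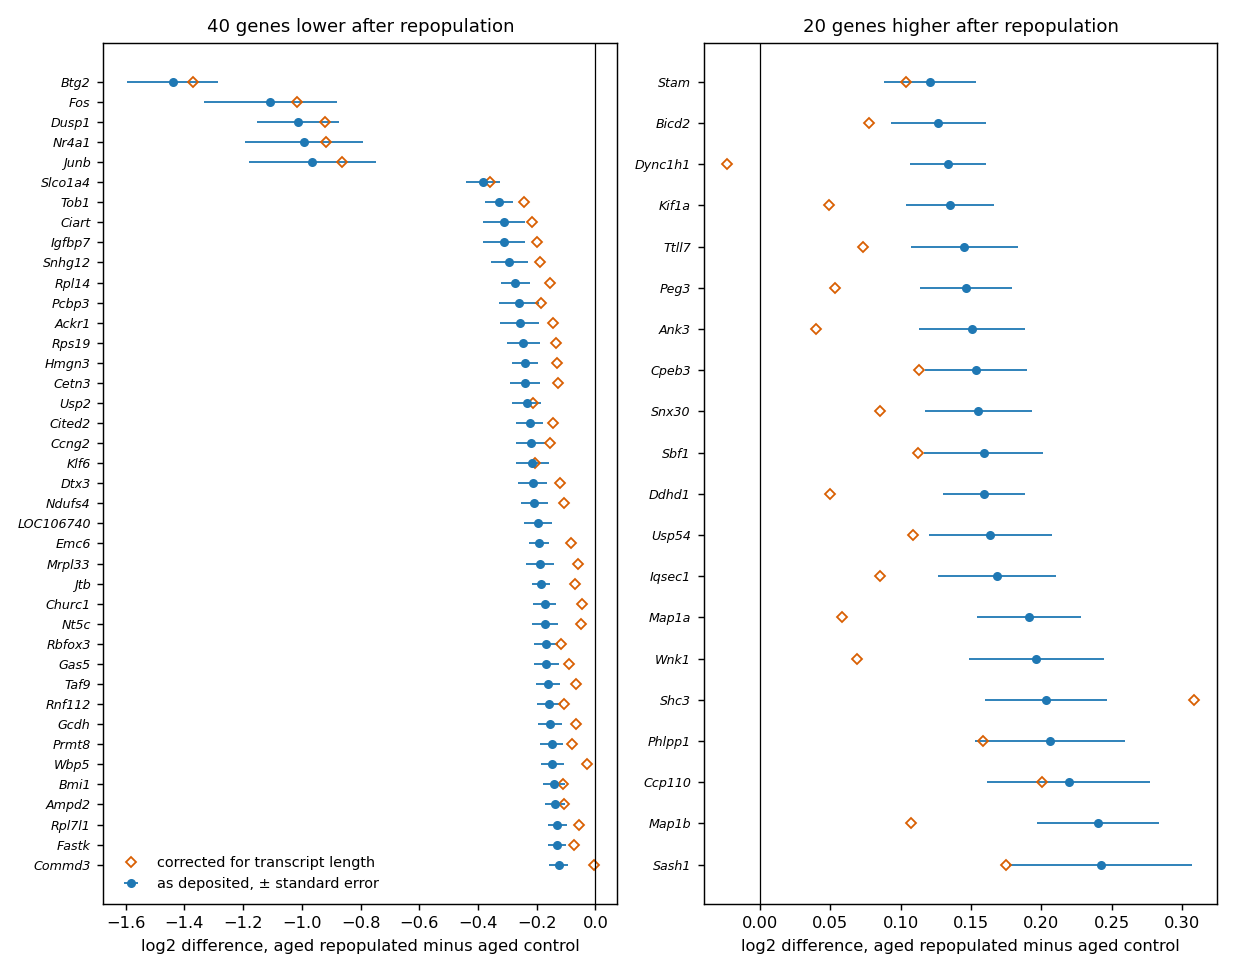
Log2 differences of the 40 genes lower (left) and 20 genes higher (right) after repopulation (x axis, ± standard error, blue), with the values after correction for transcript length as open diamonds, on separate scales. The 5 lowest genes, from *Btg2* at -1.44 to *Junb* at -0.96, stay below -0.86 after the correction, and *Dync1h1* moves from 0.13 to -0.02.

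The called genes were chosen by the difference between the aged groups, so their summed levels had to differ between those groups. Sums in young controls are set beside them as values only, because the contrasts share libraries. For the 20 genes higher after repopulation the summed level was 793.8 to 813.9 RPKM in aged-repopulated, 699.8 to 722.3 RPKM in aged control and 774.7 to 794.0 RPKM in young control libraries. For the 40 lower genes it was 882.6 to 905.5, 1049 to 1131 and 918.2 to 980.9 RPKM. In the plot of the called genes by size, the 5 immediate early genes stand apart from the other 35 that were lower, the nearest of which is *Slco1a4* at -0.38.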

How the data were processed

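RNA-seq libraries of hemibrains from 3 aged-repopulated, 3 aged control and 3 young control mice were grouped by their labels, and each library number was used once, so no pairing was made. The authors called bases with CASAVA 1.8.2 (per the labels), used ELAND for alignment to mm10, derived RPKM for each gene, tested 6145 genes and deposited the RPKM of 689. The counting step, the strand setting and the handling of shared reads are not given in the sources used here. The authors' own F, t and p values stand in the same table and were not used. All columns of library values were mapped (0 left over).

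Read depth could not be recovered. A search of 88 genes for the steps that whole reads leave gave mean cosines of 0.266 to 0.315 per library, where perfect steps give 1. No counting interval is therefore given.

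From the deposited RPKM, log2(RPKM + 1) was fitted with limma 3.58.1 in R 4.3.3, with 9 libraries and 3 group means in one fit, 6 residual degrees of freedom and Benjamini-Hochberg adjustment over 689 genes. A gene with an adjusted p under 0.05 is called. The pseudocount of 1 understates the change of low genes. The code was tested on simulated data. Python 3.11.15, pandas 2.3.3 and matplotlib 3.10.9 were used for tables and plots.

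Gene positions, transcript length and GC content came from GENCODE M21 on GRCm38, where 686 symbols matched, 19 of them by an older symbol. Length and GC content are those of the longest protein-coding transcript in the GENCODE basic set. Where a gene had none, its longest transcript was used. Longer transcripts outside that choice were not considered. Promoter windows came from RefSeq on GRCm38.p6.

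The comparison, the lists and the rule for named genes were chosen with earlier results of these data known, and 10 genes that name patterns had placed in an unsuitable list were taken out after the table was seen. Named by rule were all called genes, up to 4 genes of smallest p in each list and all microglial genes but 1, which is not reported here. Other list members were named after their values were seen. Alternatives were pseudocounts of 0.1 and 10, untransformed RPKM, centring on the library median, quantile normalization, loess corrections (span 0.75) for transcript length or GC content, a mean of at least 20 RPKM (341 genes), the 6 aged libraries alone, a variance trend, adjustment over 6145 genes, and each library left out.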

Additional observations from a re-analysis of the deposited data

How the results depend on the processing

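Against 60 genes called, 20 higher and 40 lower, untransformed RPKM gave 21 (6 and 15), centring each library on its median 133 (111 and 22), quantile normalization 73 (52 and 21), correction for transcript length 10 (4 and 6), for GC content 69 (46 and 23), a mean of at least 20 RPKM 31 (10 and 21, of 341 genes), the 6 aged libraries alone 5 (0 and 5) and adjustment over the number of genes that the authors had tested 1 (0 and 1, *Btg2*). Of the called genes, 41 were shared with the centred fit, 39 with the quantile fit and 6 with the length-corrected fit. Centring thus turned the balance from mostly lower to mostly higher. Pseudocounts of 0.1 and 10 and a variance trend gave 61, 54 and 62. Leaving out single libraries gave 2 to 141 called genes, 0 to 44 higher and 2 to 97 lower. With centring, quantile normalization, the length correction or the GC correction, the median over the table was between -0.0064 and 0.0068, against -0.05. No paired analysis was possible because the library numbers are unique.

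Among 2327 values of 119 named genes under the alternatives, 1526 kept direction and side of the threshold, 686 kept the direction and lost the call, 63 kept the direction and gained one, and 52 changed sign, nearly all from differences close to 0. After such a change of sign, the correction for transcript length gave 0.026 for *Atp5c1*, 0.017 for *Atp6v0b*, 0.047 for *B2m*, 0.087 for *C1qa*, 0.048 for *C1qb*, 0.042 for *C1qc*, 0.020 for *Cox6a1*, 0.000874 for *Cox8a*, -0.024 for *Dync1h1*, 0.065 for *Glul*, 0.065 for *Ifi27*, 0.041 for *Mrpl42*, 0.066 for *Mrps6*, -0.000332 for *Ptprd* and -0.019 for *Tln2*. Quantile normalization gave 0.017 for *C1qa*, 0.016 for *Cox6a1*, 0.023 for *Glul*, 0.0057 for *Mrps6*, 0.011 for *Serinc3* and 0.00 for *Tmsb4x*. The GC correction gave 0.068 for *C1qa*, 0.014 for *C1qb*, 0.013 for *C1qc*, 0.028 for *Glul* and 0.0021 for *Mrps6*. Centring gave 0.024 for *C1qa*, 0.053 for *Glul* and 0.000408 for *Ifi27*, and untransformed RPKM gave *C1qa* a difference of 0.086 RPKM. Leaving out single libraries took *B2m* from -0.24 to 0.040, *C1qa* from -0.26 to 0.12, *C1qb* from -0.25 to 0.064, *C1qc* from -0.25 to 0.025, *Csf1r* from -0.018 to 0.11, *Ctss* from -0.062 to 0.23, *Glul* from -0.034 to 0.033, *Ifi27* from -0.16 to 0.028, *Laptm5* from -0.017 to 0.20, *Lgmn* from -0.026 to 0.075, *Mrps6* from -0.12 to 0.018 and *Tyrobp* from -0.084 to 0.21. The cause of these changes was not tested. Depth is unknown, and with 3 libraries a group a difference that was not called is not shown to be absent.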

Other observations

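Several of the larger differences in the table belonged to genes that were not called, and those named here were chosen after their values were seen. The non-coding transcript 1500012F01Rik was at 32.1, 28.8 and 35.9 RPKM after repopulation and at 34.8, 44.8 and 49.7 RPKM in aged controls, a log2 difference of -0.40 with overlapping libraries (adjusted p = 0.057, limma). *Hipk2*, a nuclear kinase of stress responses, was higher in every aged-repopulated library, at 12.9, 11.1 and 11.7 RPKM against 10.1, 8.61 and 10.8 RPKM, a log2 difference of 0.25 (adjusted p = 0.059, limma). *Col6a1*, a collagen of vessel walls and meninges, and *Igfbp6* were each at -0.22 without overlap (adjusted p = 0.071 and 0.067, limma). *Il33*, an alarmin made by oligodendrocytes and astrocytes in brain, was at 38.0, 32.1 and 37.3 RPKM after repopulation and at 33.4, 32.2 and 26.6 RPKM in aged controls, a log2 difference of 0.21 (adjusted p = 0.12, limma), and at 27.5 RPKM on average in young controls. *Gpcpd1*, a phosphodiesterase of glycerophosphocholine, was at 21.02, 20.05 and 20.2 RPKM after repopulation, while the aged controls spread from 13.1 to 22.6 RPKM.

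Correction for transcript length called 4 genes that the fit of deposited values had not, *Bet1*, *Cryab* and *Elovl5* higher and *Prpf4b* lower. *Bet1*, of transport between endoplasmic reticulum and Golgi, was at 12.6, 12.4 and 13.1 RPKM after repopulation and at 11.2, 11.96 and 11.01 RPKM in aged controls. *Cryab* was at 71.5, 68.0 and 80.5 RPKM and at 56.3, 68.3 and 52.7 RPKM, so that P02 and P11 overlapped.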
